A study of Gallus gallus with 24 samples.

Results

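Solute carriers are the proteins that move small molecules across cell and organelle membranes along gradients, and their gene symbols carry the letters SLC and a family number. The genes described here are those of the array whose symbol has that form, apart from SLC25A20 and SLC27A4, which were left out by the rule. There were 119 of them among 6428 named genes and 15027 features in all, a feature being a named gene or a single unnamed spot. All 119 had a value at every age, and no filter on low values was applied. For 3 of them, SLC9A3R1, SLC9A3R2 and SLC7A6OS, the symbol was given after a neighbouring or partner carrier and the product is no transporter itself, so the set holds 116 transporters.

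The transcripts were measured in abdominal fat of male broiler chickens (cockerels) from a fat line (FL) and a lean line (LL), which had been selected in opposite directions on the weight of that depot. Birds were 1, 3, 5, 7, 9 or 11 wk old, and the labels name no treatment beside the selection. Each of 24 spotted cDNA arrays carried 1 FL bird and 1 LL bird of the same age, 4 arrays at each age, with the line labelled by Alexa Fluor 647 exchanged for that labelled by Alexa Fluor 555 on 12 of them. Replicate numbers stand for different birds, so that p-values rest on the spread of birds and of arrays, which are not separable here. No bird or line without selection was among the samples, so each value is a difference between the lines and never a change from an unselected state.

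As background, fat cells take up glucose and fatty acids through carriers of the SLC2 and SLC27 families, exchange lactate and pyruvate through SLC16, and take up amino acids through SLC1, SLC7 and SLC38. Carriers of the SLC25 family in the inner mitochondrial membrane exchange ADP for ATP, bring in phosphate, and pass citrate to the cytosol, where it feeds fatty acid synthesis, a pathway that in birds is more active in liver than in fat. Other families move vitamins, nucleotide sugars of the secretory pathway, protons, bicarbonate and metals. Substrate groups below follow the family number, so a group can hold a gene with another cargo. SLC46A3 is thus counted with the vitamin carriers, SLC6A4 with those of amino acids and SLC17A5 with those of nucleotide sugars. SLC2A1, SLC2A3, SLC1A3 and SLC3A2 were not analysed here.

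The values are the authors' deposited log2 ratios between the lines. FL stands first in the titles and was taken as the numerator, which is likely but not settled, and "higher" means higher in the numerator line. If LL was the numerator, every sign turns. Counts of genes higher or above 0 then change places with those lower or below 0, and counts without a direction stay. Since only ratios were used, no level of any transcript is known, the tissue cannot be checked by the level of fat cell markers, and fewer cells of a type cannot be told apart from less RNA per cell. Over spots, the mean correlation was 0.21 between arrays sharing a dye orientation and -0.17 between arrays of opposite ones. A component of the ratios thus alternated with the dyes. A dye term in the fit took it up, and the other reading of it, called turned, is given further on. Every sign in the turned reading rests on which dye was taken as the numerator, as stated there. Spots were named after exchanging row and column in the annotation: the mean rank correlation between spots of one gene was then 0.0583, above 0 on 23 of 24 arrays, against 0.00565 with names as given. The gene names therefore rest on a weak agreement. The liver cell markers (19 of 20 listed were measured) lay far from 0 on 3 arrays, with medians after removal of the dye term of 1.08 on 1 wk replicate 2, 0.52 on 5 wk replicate 1 and -0.47 on 1 wk replicate 4, against -0.11 to 0.07 on the others. What part this had in the results at those ages was not tested, and results without the 2 arrays of high liver markers are given where they differ. Those results still include 1 wk replicate 4, so they are not free of arrays with liver markers far from 0.

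With the ratios as deposited, no solute carrier gene differed between the lines at an adjusted p under 0.05 in any of 9 comparisons. The test was limma with array weights, Benjamini-Hochberg adjusted over all features. For the mean over the 6 ages the number called was 0 of 119, beside 0.0133% of all features (2 features). At 3 wk it was 0 of 119 beside 1.21% (182 features), and at 7 wk 0 of 119 beside 0.00665% (1 feature). At 1 wk, 5 wk, 9 wk and 11 wk, for the linear trend with age and for a difference among the 6 ages it was 0 of 119 beside 0% of all features each. The smallest adjusted p of a member was 0.06, for SLC23A1 at 3 wk. The 182 features at 3 wk fell to 0 without 3 wk replicate 4. The median line difference of the 119 genes was 0.00252 for the mean over ages, with 63 genes above 0, and that of all features was 0.00293. The median standard error of all features was 0.0419 for the mean over ages and 0.0710 to 0.116 at a single age, which limits what could be detected. Leaving out single arrays changed these counts. For the mean over ages 1 gene was called without 1 wk replicate 2 (18 of all features), 1 without 1 wk replicate 3 (26 features) and 3 without 5 wk replicate 2 (172 features). At 3 wk 1 gene was called without 1 wk replicate 2 (263 features), 1 wk replicate 4 (247), 3 wk replicate 1 (234), 3 wk replicate 2 (144) or 5 wk replicate 2 (244). At 7 wk 3 genes were called without replicate 1 (348 features), 1 without replicate 2 (46) and 4 without replicate 3 (424), so the count over all features moved as well. Without the 2 arrays of high liver markers SLC23A1 was called for the mean over ages (4 features) and at 3 wk (293 features). The turned reading changed the count most: 42 of 119 were called for the mean over ages, beside 37.9% of all features.

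About 5% of features, higher and lower ones counted jointly, pass an unadjusted p under 0.05 when nothing differs. Counted so, 1545 of 15027 features passed it for the mean over ages. At the 6 ages 331, 1787, 328, 630, 1000 and 948 features passed it. The shares of higher and of lower genes below each cover a single direction, so the 5% does not apply to them singly. For the mean over ages 8 solute carriers were higher and 5 lower, beside 5.53% and 4.75% of all features. At 1 wk 2 were higher and 2 lower (all features 1.32% and 0.885%). At 3 wk 8 were higher and 8 lower (5.4% and 6.49%), the largest such number of any age for the members. At 5 wk 3 were higher and 0 lower (1.08% and 1.1%). At 7 wk 2 were higher and 2 lower (2.24% and 1.96%). At 9 wk 9 were higher and 3 lower (3.77% and 2.88%). At 11 wk 2 were higher and 2 lower (3.49% and 2.82%). For the linear trend 3 had a positive and 3 a negative slope (1.43% and 1.5%), and 1 differed among ages (2.14%). The member shares lay on both sides of those of all features, with the widest gap for genes higher at 9 wk (7.56% of members). These numbers moved with single arrays. In both directions together, the 12 genes at 9 wk became 5 without replicate 3 and also 5 without a dye term. All features at 9 wk numbered 1000 in the main fit and 565 without a dye term. The 4 at 7 wk became 10, 12, 19 and 9 without replicates 1 to 4 in turn, while all features at that p numbered 1369 to 2105. The 3 at 5 wk became 1, 8, 6 and 11 without replicates 1 to 4, the 4 at 1 wk became 8 without replicate 1 and 7 without replicate 2, and the 16 at 3 wk became 9 without replicate 4. All features went from 331 to 1016 and 1040 in these 1 wk fits, and from 1787 to 1347 in that at 3 wk. The 4 at 11 wk became 7 without 1 wk replicate 3, where all features went from 948 to 971. The 13 for the mean over ages became 20 without 5 wk replicate 2. The 6 slopes became 12 without 1 wk replicate 1, 11 without 1 wk replicate 3, 1 without 1 wk replicate 4, 3 without 9 wk replicate 2 and 2 without 11 wk replicate 3. Slopes of all features went from 441 to 994, 1090 and 545 in the first 3 of these fits. For the remaining fits the number over all features is not given here. Their member counts thus cannot be told apart from a shift of all features.

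**Figure D1:**
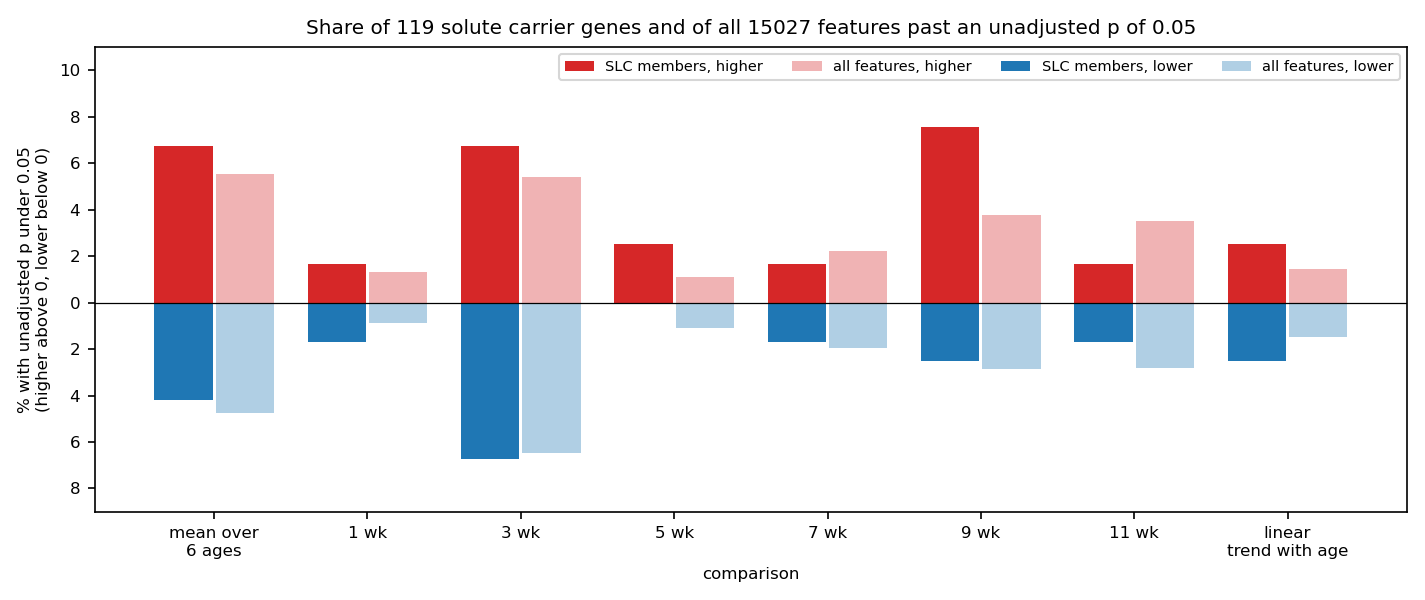
The percentage of the 119 solute carrier genes (dark bars) and of all 15027 features (pale bars) with an unadjusted p under 0.05 is plotted for the mean over ages, each age and the linear trend, higher in red above 0 and lower in blue below 0. Dark bars lie above the pale ones in some comparisons and below in others. The widest gap is that of higher genes at 9 wk, 7.56% against 3.77%. The number of members at 9 wk in both directions went from 12 to 5 without 9 wk replicate 3, and that of all features in that fit is not given.

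**Figure D2:**
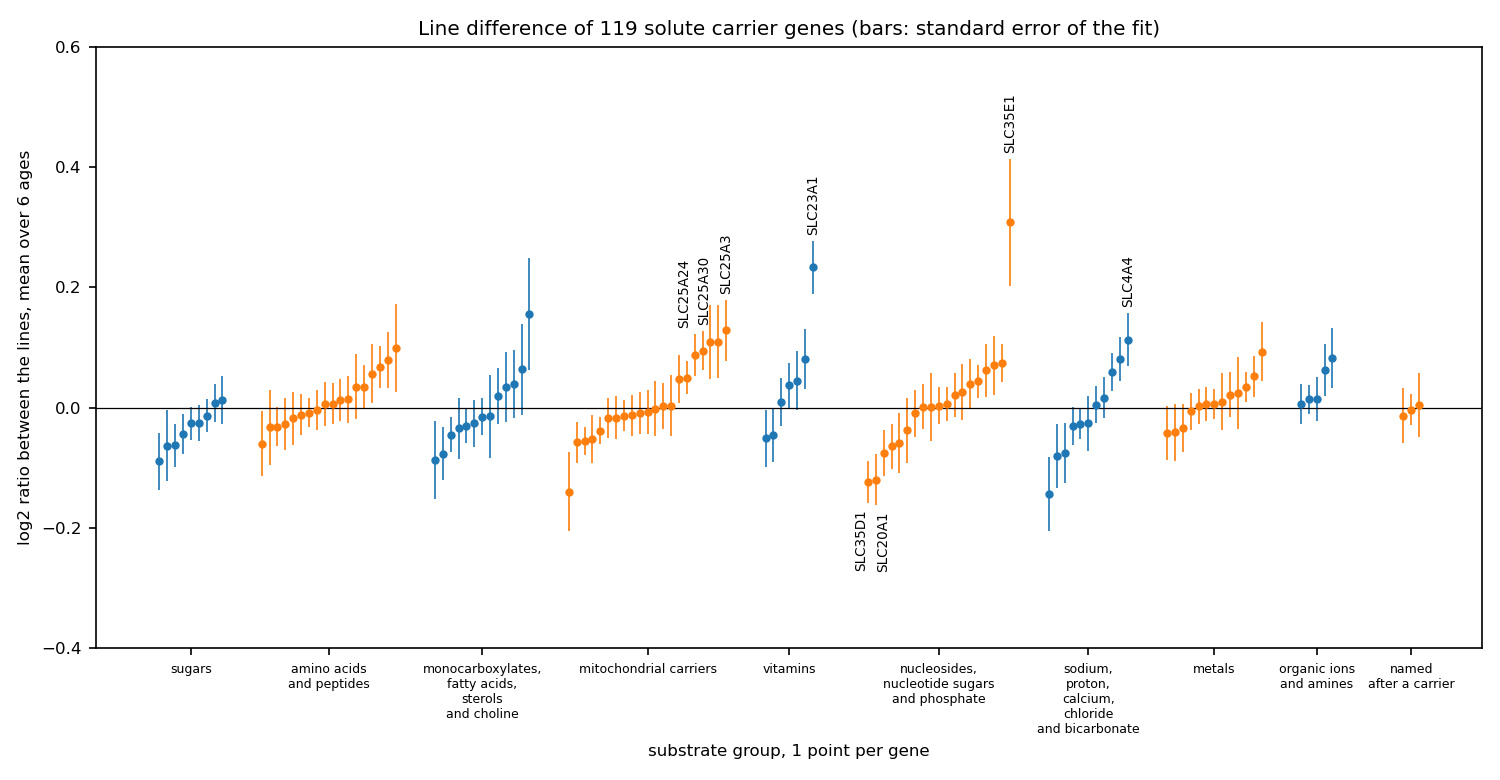
The log2 ratio between the lines, as the mean over 6 ages, is plotted for each of the 119 genes in order of value within its substrate group, with 1 standard error of the fit as the bar; alternating colours only part the groups. The genes crowd around 0, and the 8 labelled genes are those with the smallest p, from -0.12 for SLC35D1 to 0.31 for SLC35E1.

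The member furthest from 0 in units of its error was SLC23A1, a sodium-coupled transporter of vitamin C. Its deposited ratios on replicates 1 to 4 were 0.62, -0.23, 0.39 and 0.48 at 1 wk, 0.09, 0.66, 0.52 and 0.14 at 3 wk, and 0.50, 0.14, 0.52 and 0.47 at 5 wk. At the later ages they were 0.11, -0.27, 0.27 and -0.01 at 7 wk, 0.33, -0.12, 0.16 and -0.13 at 9 wk, and 0.39, 0.20, 0.24 and -0.16 at 11 wk. Thus 11 of the 12 ratios up to 5 wk lay above 0, against 7 of 12 afterwards, and all 12 arrays with LL labelled by 647 were above 0 but only 6 of the 12 with FL so labelled. The fitted difference was 0.23 ± 0.0441 (SE, n = 24 arrays) for the mean over ages, a 1.18-fold ratio, with an adjusted p of 0.0633 in limma. By age it was 0.33, 0.36, 0.44, -0.01, 0.08 and 0.20, and its slope of -0.03 per week did not pass the adjusted threshold. The call turned on single arrays: the adjusted p was 0.0176 without 1 wk replicate 2, 0.0498 without 1 wk replicate 3, 0.0162 without 5 wk replicate 2 and 0.05 without the 2 arrays of high liver markers together. It reached 0.173 without 9 wk replicate 1. At 3 wk the difference was 0.36 ± 0.0939 (SE), adjusted p 0.06, with 0.0337 without 1 wk replicate 2, 0.0474 without 1 wk replicate 4 0.0247 without 3 wk replicate 1 and 0.0356 without the 2 arrays of high liver markers. The 1 wk value was 0.20 without its replicate 1 and the 11 wk value 0.11 without its replicate 2. When the ratios were turned by the dyes the mean over ages was -0.12, with an adjusted p of 0.0498 in limma. That call is in the opposite direction only if the line labelled by 647 was the numerator of every ratio. With spot names as given the gene had 0.12. The gene had 1 spot.

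The other vitamin carriers lay closer to 0. SLC23A2, the second vitamin C transporter, had 0.08 ± 0.0499 (SE) for the mean over ages and its highest difference, 0.26, at 9 wk, where replicates 1 to 4 gave -0.30, 0.51, 0.29 and 0.88. At 9 wk the widest difference by p belonged to SLC46A1, which carries folate with protons. Its ratios there were 0.21, 0.20, 0.22 and 0.61, all above 0, whereas at 7 wk they were -0.36, -0.14, 0.04 and -0.13. The fitted difference was 0.29 ± 0.0955 (SE) at 9 wk, adjusted p 0.678, and SLC46A1 was the 1 member with an unadjusted p under 0.05 for a difference among ages (0.0339, adjusted 1.00). Of the 7 vitamin carriers 5 were above 0 for the mean over ages, with a median of 0.04. The thiamine transporter SLC19A3 and the riboflavin transporter SLC52A3 were below it, both at -0.05.

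**Figure D3:**
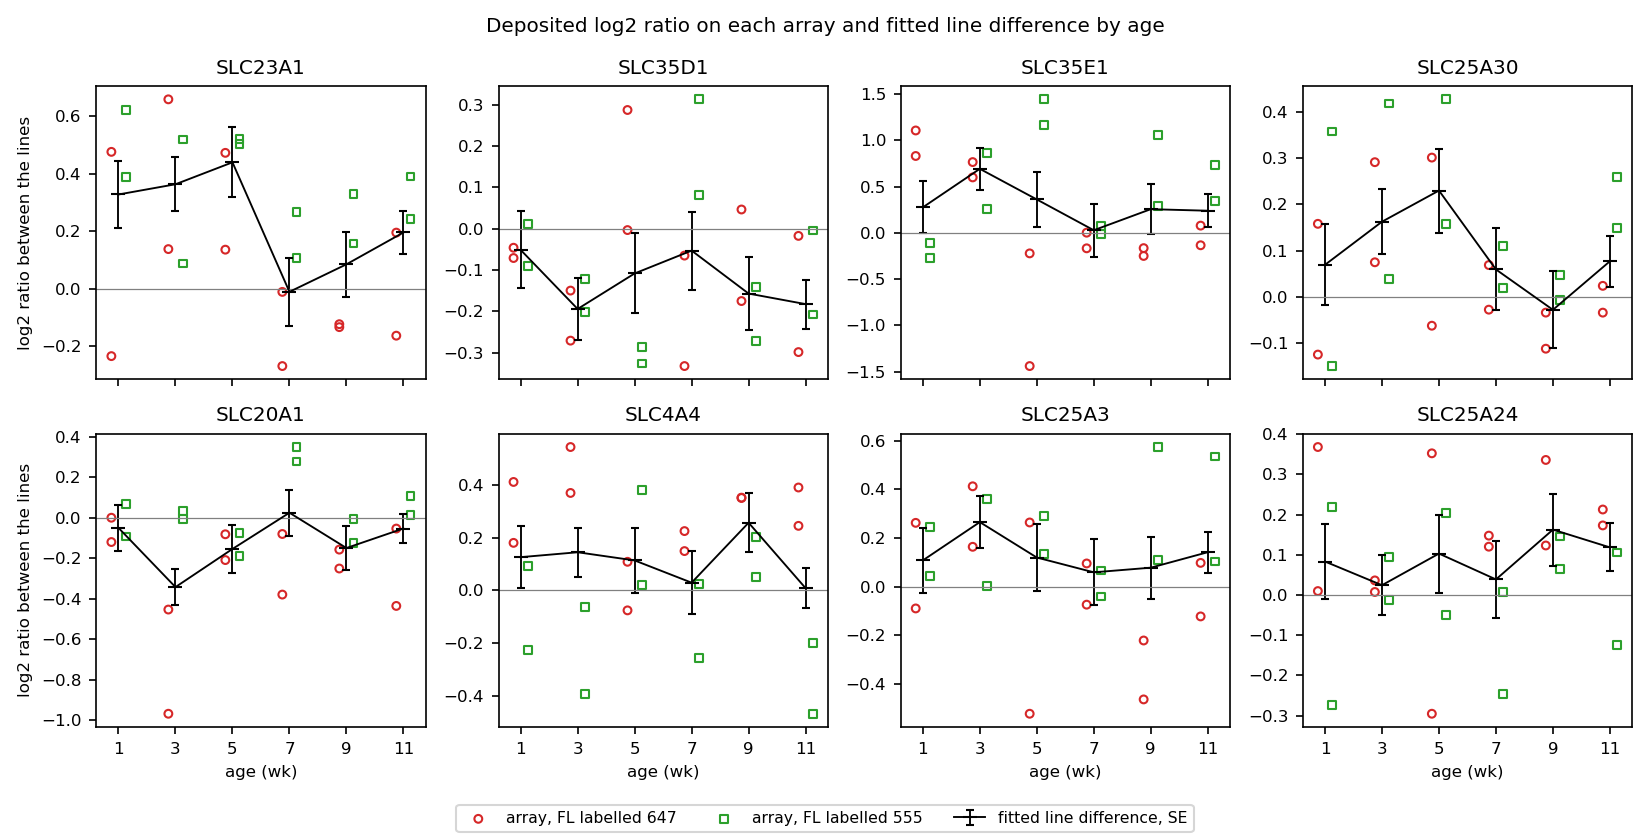
For the 8 genes with the smallest p for the mean over ages, the deposited log2 ratio of each array is plotted against age in weeks (red circles, FL labelled by 647; green squares, FL labelled by 555), with the fitted line difference and its standard error in black; the vertical scale differs between panels. For SLC23A1 the fitted values are 0.33 to 0.44 up to 5 wk and -0.01 to 0.20 later, and for SLC35E1 single arrays run from -1.44 to 1.44.

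Carriers of nucleotide sugars, nucleosides and phosphate held the widest mean over ages as deposited. Of 19, 12 were above 0 for the mean over ages, with a median of 0.00324. SLC35D1, which brings UDP-sugars into the endoplasmic reticulum for glycan synthesis, was below 0 at all 6 ages (-0.05, -0.19, -0.11, -0.05, -0.16 and -0.18). Its ratios were below 0 on 19 of 24 arrays: at 3 wk they were -0.20, -0.15, -0.12 and -0.27, with all 4 birds' arrays on one side. At 7 wk they were 0.31, -0.06, 0.08 and -0.33, so the arrays disagreed. The mean over ages was -0.12 ± 0.0350 (SE), adjusted p 0.161, and 0.0421 without 5 wk replicate 2. At 11 wk it was -0.18 ± 0.0594 (SE), adjusted p 0.501, and -0.11 without 11 wk replicate 2.

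SLC35E1, a family member whose cargo is not established, had a mean over ages of 0.31 ± 0.105 (SE), adjusted p 0.266, the widest of the members as the ratios were deposited. With the ratios turned by the dyes it was -0.17, and SLC35B2 was the widest at -0.31. Its arrays scattered widely: 1 wk gave -0.11, 0.83, -0.27 and 1.11, 5 wk gave 1.16, -1.44, 1.44 and -0.22, and 7 wk gave 0.08, 0.00, -0.02 and -0.17. At 3 wk the 4 ratios of 0.25, 0.76, 0.86 and 0.60 were all above 0. Without 5 wk replicate 2 the adjusted p was 0.0448. Without the 2 arrays of high liver markers the value was 0.18, and with names as given 0.02.

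At 3 wk 5 of the 19 genes of this group were lower at an unadjusted p under 0.05 and 1 was higher, a group singled out after its values were seen. Over all features at 3 wk the shares were 6.49% lower and 5.4% higher. SLC20A1, a sodium-coupled importer of phosphate, had ratios of 0.03, -0.97, 0.00 and -0.45 there, so that the 2 arrays with FL labelled by 647 were far below 0 and the other 2 near it. The fitted difference was -0.34 ± 0.0896 (SE), a 0.789-fold ratio, adjusted p 0.0628, and -0.22 without 3 wk replicate 2. Both of its spots, which hold the same clone, were below 0 at 3 wk (-0.24 and -0.44). SLC35B4, which carries UDP-xylose and UDP-N-acetylglucosamine, had 3 wk ratios of -0.38, -0.07, -0.26 and -0.32, all below 0, and a difference of -0.28 ± 0.0808 (SE), adjusted p 0.105 (0.0369 without 5 wk replicate 2). Its 2 spots, from different clones, gave -0.50 and -0.05. SLC35E2B and SLC35F5, both without an established cargo, had -0.27 and -0.28 at 3 wk, and SLC35D1 was the fifth. At other ages SLC35F5 lay between -0.06 and 0.02. SLC35G2, likewise without an established cargo, was named for 7 wk, where it had -0.27, 0.46, -0.08 and 0.25 on the 4 arrays and a difference of 0.21 ± 0.0853 (SE). That value was 0.36 without 7 wk replicate 3 (adjusted p 0.0122), 0.345 without replicate 1 (0.0148), -0.08 without replicate 2 and -0.03 without replicate 4. Its sign thus rested on the 2 arrays with FL labelled by 647.

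Mitochondrial carriers formed the largest family, with 21 genes, 9 of them above 0 for the mean over ages and a median of -0.00748. SLC25A3, the phosphate carrier that supplies ATP synthase, was above 0 at all 6 ages (0.11, 0.27, 0.12, 0.06, 0.08 and 0.14), with a mean of 0.13 ± 0.0502 (SE), adjusted p 0.348. Its ratios at 3 wk were 0.00, 0.41, 0.36 and 0.16, and at 9 wk 0.57, -0.46, 0.11 and -0.22. Its 2 spots gave means of 0.20 and 0.05. Of the ADP/ATP exchangers, SLC25A6 had 0.11 ± 0.0603 (SE), SLC25A4 had -0.02 ± 0.0334 (SE) and SLC25A5 lay at -0.01. The 2 spots of SLC25A5 gave -0.09 and 0.07. SLC25A6 was highest at 1 wk, with 0.38, 0.27, 0.14 and 0.60, and at 3 wk, with 0.39, 0.48, 0.42 and -0.01. On 5 wk replicate 2 it was -0.91 and SLC25A3 was -0.52, the lowest ratio of either gene on any array. SLC25A1, which exports citrate for lipid synthesis, gave -0.01 ± 0.0335 (SE), and at no age was its fitted value outside -0.13 to 0.09.

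SLC25A24, an exchanger of ATP-magnesium for phosphate, was above 0 at all 6 ages with a mean of 0.09 ± 0.0351 (SE), adjusted p 0.359. SLC25A30, a relative of the uncoupling proteins, had 0.09 ± 0.0327 (SE), adjusted p 0.267, and its highest value, 0.23, at 5 wk, where the arrays read 0.43, -0.06, 0.16 and 0.30. Its spots differed there, at 0.46 and -0.02. SLC25A10, which exchanges malate and succinate for phosphate, was lowest at 11 wk, where all 4 ratios were below 0 (-0.04, -0.20, -0.09 and -0.15) and the difference was -0.13 ± 0.0395 (SE), adjusted p 0.426. At 1 wk its 4 ratios were all above 0 (0.01, 0.16, 0.05 and 0.10), and its slope with age was -0.02 per week, adjusted p 0.999. SLC25A32, which carries folate and FAD into mitochondria, had the widest negative value of any member at any age, -0.54 ± 0.178 (SE) at 7 wk. Its arrays there read 0.01, -1.33, 0.31 and -0.15, so replicate 2 stood far below the others. The value was -0.97 without 7 wk replicate 3 (adjusted p 0.00350), -0.83 without replicate 1 (0.0148) and 0.20 without replicate 2. SLC25A29, a carrier of basic amino acids, had -0.48, -0.04, -0.11 and -0.08 at 7 wk, all below 0, and a difference of -0.15 ± 0.0602 (SE), adjusted p 1.00.

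Sugar carriers were below 0 in 7 of 9 genes for the mean over ages, with a median of -0.0255, but in only 3 of 9 with the ratios turned by the dyes. In the deposited direction none had an unadjusted p under 0.05 for the mean over ages, whereas SLC2A2 and SLC37A2 did at 9 wk. SLC2A6 was lowest at -0.09 ± 0.0471 (SE). SLC37A4, which takes glucose 6-phosphate into the endoplasmic reticulum, had -0.06, SLC37A2 had -0.04 and SLC37A3 had -0.01, all below 0, whereas in the turned reading SLC37A3 (0.03) and SLC37A4 (0.00197) were above it. SLC2A2, the low-affinity glucose transporter of liver and islet cells in mammals, had a mean of 0.00783 ± 0.0323 (SE). At 9 wk its ratios were -0.06, 0.62, -0.21 and 0.68, high on the 2 arrays with FL labelled by 647 and below 0 on the others, and the fitted difference was 0.20 ± 0.0824 (SE), adjusted p 0.746. SLC37A2 was on the other side at 9 wk, at -0.20, where its spots, from 3 clones, gave -0.53, -0.04 and -0.03.

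Among 13 carriers of monocarboxylates, fatty acids, sterols and choline 5 were above 0, the median was -0.0147, and none passed an unadjusted p of 0.05 for the mean over ages. The lactate and pyruvate carriers SLC16A1 and SLC16A3 gave -0.01 ± 0.0312 and -0.03 ± 0.0392 (SE). The value of SLC16A3 averages 2 spots of different clones with opposite signs, 0.10 and -0.15. SLC27A1, a fatty acid transport protein of fat and muscle, had -0.04 ± 0.0292 (SE) over ages, and 0.08 (adjusted p 0.0197) in the turned reading. Its 2 spots, from different clones, gave 0.06 and -0.17 over ages, and -0.02 and -0.43 at 1 wk. At 1 wk its ratios were -0.32, -0.05, -0.40 and 0.14, low on both arrays with LL labelled by 647, and the difference was -0.18 ± 0.0779 (SE), adjusted p 1.00. SLC44A1, a choline transporter, had 0.16 ± 0.0931 (SE), on arrays from -0.83 to 1.23, and -0.08 in the turned reading, where SLC16A8 (0.19) and SLC16A6 (-0.18) lay furthest from 0 in this group. SLC51A, a subunit of the bile acid exporter, and SLC27A2, an acyl-CoA synthetase and fatty acid transporter prominent in liver, had their highest ratios, 1.12 and 0.80, on 1 wk replicate 2, the array on which the liver markers were highest. On the other 23 arrays SLC51A was at most 0.60 and SLC27A2 at most 0.44. Both genes were named for this after their values were seen. Their single spots had fitted values of 0.29 and 0.20 at 1 wk, whereas that of SLC2A2, also a liver transporter in mammals, had 0.02. Those of SLC22A7, SLC25A47 and SLC25A15 had -0.015, 0.0059 and -0.052 at 1 wk, so the high value was not shared by all. No list of liver carriers was drawn up, so these genes do not show how such carriers moved as a set. Whether liver RNA had a part was not tested. SLC16A12 at 9 wk (0.08, -0.17, -1.42 and 0.41) and SLC16A4 at 9 wk (0.02, 0.42, 0.33 and 0.55) were the lowest and highest members of that age, at -0.31 and 0.30.

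Amino acid and peptide carriers were balanced, with 10 of 18 above 0, a median of 0.00654 and none past an unadjusted p of 0.05 for the mean over ages. SLC38A2, a sodium-coupled importer of neutral amino acids, was above 0 at all 6 ages, between 0.03 and 0.17, but its arrays ran from -0.84 to 0.82 and the mean was 0.10 ± 0.0730 (SE), adjusted p 0.722. SLC7A5, which exchanges large neutral amino acids, gave -0.01 ± 0.0243 (SE) from 6 spots and lay within -0.05 and 0.03 at every age. SLC43A2, which lets neutral amino acids out of cells, had 0.42, -0.13, 0.34 and 0.50 at 1 wk, 3 of 4 arrays high, and a difference of 0.29 ± 0.131 (SE), adjusted p 1.00. SLC1A4, an exchanger of alanine, serine and cysteine, had -0.29, 0.58, 0.58 and 0.36 at 5 wk and a difference of 0.32 ± 0.151 (SE), adjusted p 1.00. SLC6A7, a proline transporter, had the steepest positive slope by p, 0.03 per week (adjusted p 0.999), with fitted values of -0.15, -0.11, -0.12, 0.03, 0.19 and 0.06. At 9 wk 1 array, replicate 3 at 0.76, was its highest. SLC7A2, a transporter of arginine and lysine, had 0.22 at 9 wk, where the ratios were 0.00, 0.27, -0.01 and 1.01.

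Of 11 carriers of sodium, protons, calcium, chloride and bicarbonate 5 were above 0, with a median of -0.0259. SLC4A4, the sodium bicarbonate cotransporter, was above 0 at all 6 ages, and its mean was 0.11 ± 0.0440 (SE), adjusted p 0.346. It was highest at 9 wk, at 0.05, 0.35, 0.20 and 0.35, and at 11 wk read -0.20, 0.39, -0.47 and 0.25. Its dye term of 0.22 was wider than its line difference: 11 of 12 arrays with FL labelled by 647 were above 0, against 6 of 12 of the others. SLC8B1, the sodium-calcium exchanger of mitochondria, was below 0 at all 6 ages, from -0.06 to -0.21, with a mean of -0.14 ± 0.0612 (SE), adjusted p 0.401. The 4 spots of SLC8B1 were all below 0 for the mean over ages, and none of the 12 arrays with FL labelled by 647 was above 0. The arrays of the other dye orientation are not counted here, so this does not show one sign on all arrays. In the turned reading the mean was -0.22, further from 0 than the deposited -0.14. The component that alternated with the dyes was thus wider than the line difference of SLC8B1. Its relative SLC8A1 had -0.08. SLC9A8, a sodium-proton exchanger of the Golgi, had 0.08 ± 0.0367 (SE), from spots of different clones at 0.146 and -0.000557. SLC12A9, of the cation-chloride cotransporter family, had 0.19, 0.36, 0.25 and 0.06 at 9 wk, all above 0, and a difference of 0.23 ± 0.0804 (SE), adjusted p 0.714.

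Metal carriers were above 0 in 9 of 13 genes, with a median of 0.00645 and none past an unadjusted p of 0.05 for the mean over ages. The zinc carrier SLC39A13 had 0.09 ± 0.0491 (SE), but -0.20 (adjusted p 0.00180) in the turned reading, from the highest metal carrier to the lowest. At 3 wk its arrays read 0.24, 0.24, 0.68 and -0.14. The iron exporter SLC40A1 and the iron importer SLC11A2 both rounded to 0.01. At 3 wk the heme transporter SLC48A1 had 0.17, with ratios of 0.02, 0.20, 0.23 and 0.18, all above 0. SLC39A11 had -0.25 at 3 wk, with ratios of 0.00, -0.23, -0.35 and -0.24, and its 2 spots gave -0.45 and -0.06. All 5 carriers of organic ions and amines were above 0, from 0.00666 for SLC47A1 to 0.08 for SLC22A23, each within 2 standard errors of 0. The 3 genes named after a carrier lay between -0.01 and 0.00394.

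Across ages, the 6 fitted values of a gene seldom had one sign. SLC25A24, SLC25A3, SLC35E1, SLC38A2 and SLC4A4 were above 0 at all 6 ages (5 genes, 4.2% of members, against 4.74% of named genes), and SLC35D1 and SLC8B1 were below 0 at all 6 (2 genes, 1.68% against 2.83%). Some of these values lay near 0: the single spot of SLC35E1 had 0.00043 at 7 wk and that of SLC4A4 had 0.0054 at 11 wk. The most common count, 3 of 6 ages above 0, held for 34 members (28.6%, against 25.1% of named genes). The medians over the 119 genes at the 6 ages were 0.00721, -0.00594, 0.00832, -0.00709, 0.00952 and 0.00790. These medians lay on both sides of 0.

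**Figure D4:**
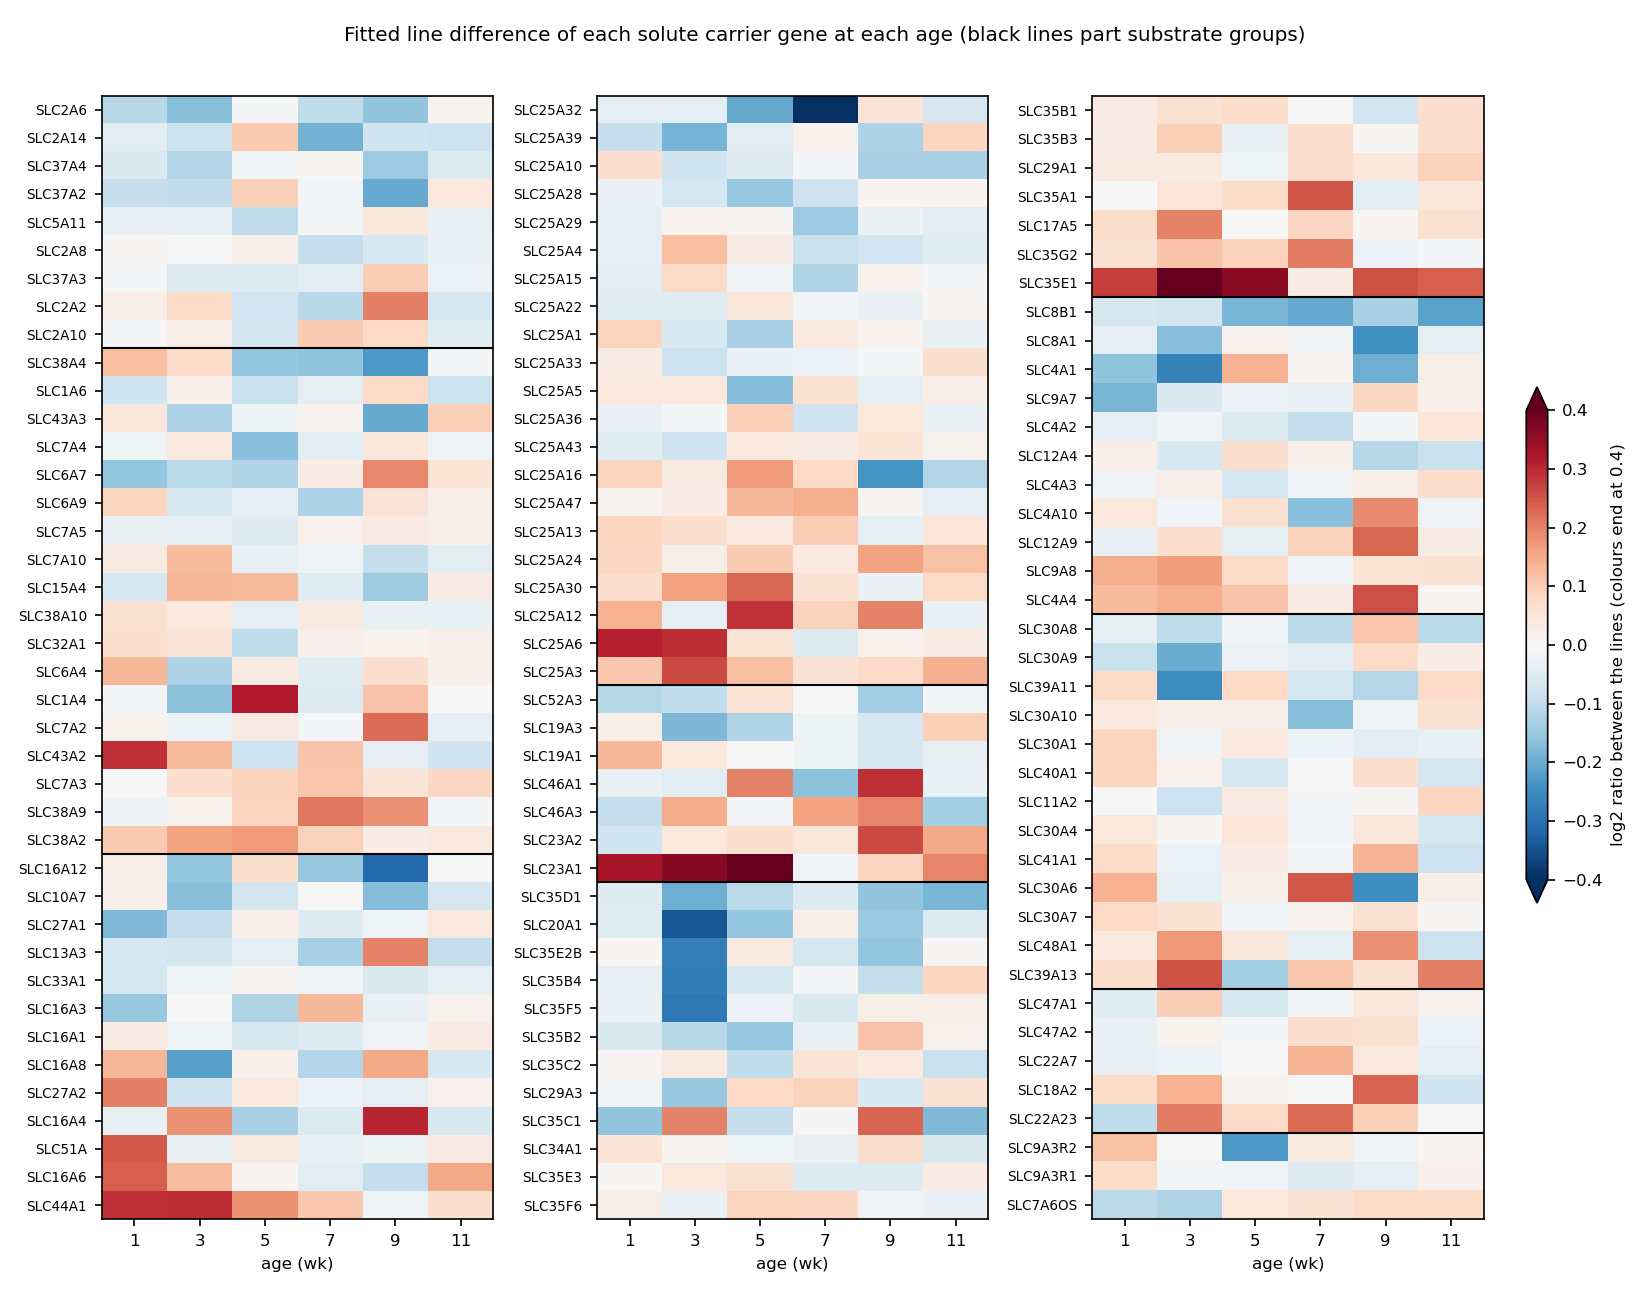
Each row is a solute carrier gene and each column an age in weeks; colour gives the fitted log2 ratio between the lines, red above 0 and blue below 0, with colours ending at 0.4 on either side and black lines between substrate groups. Few rows keep one colour, among them SLC35E1 and SLC38A2 in red and SLC35D1 and SLC8B1 in blue. SLC35E1 lies near 0 at 7 wk. The darkest blue cell is SLC25A32 at 7 wk.

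Spots of one gene agreed little. Of the 119 genes 68 had 1 spot and 51 had several, 200 spots in all, and 0 of these spots passed an adjusted p of 0.05 for the mean over ages when spots were fitted singly (4 of 19077 spots did). All spots had the same sign in 23 of the 51 genes. Over 125 pairs of spots of one gene the median correlation across the 24 arrays was 0.0648, with 73 pairs above 0, given as a description because pairs share arrays and clones. SLC7A3, an importer of basic amino acids, had spots at -0.05, -0.01 and 0.26, and SLC37A2 had -0.16, 0.03 and -0.01. SLC25A6 had -0.05, 0.05, 0.25 and 0.20. For SLC39A13 the 2 spots of one clone gave 0.26 and 0.18, and those of 2 other clones -0.07 and 0.01.

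**Figure D5:**
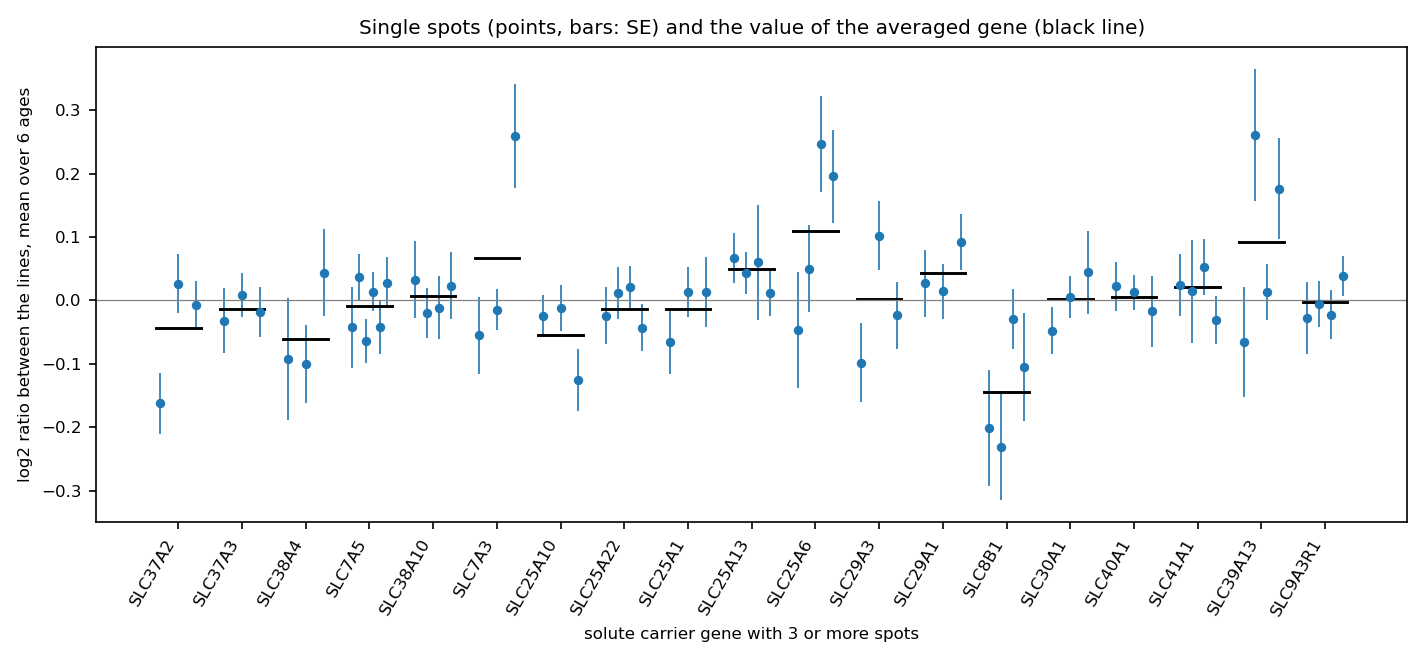
For each solute carrier gene with 3 or more spots, every spot's mean log2 ratio over 6 ages is plotted with its standard error, and the black line is the value of the gene averaged over spots. The spots of SLC8B1 all lie below 0, those of SLC7A5 lie on both sides of it, and 1 spot of SLC7A3 at 0.26 stands apart from the other two.

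The component that alternated with the dyes gives another reading. If the ratios are turned by the dye orientation, so that this component is the line difference, 42 of 119 solute carriers passed an adjusted p of 0.05 for the mean over ages, 16 higher and 26 lower. That is 35.3% of members, beside 37.9% of all features and 38.5% of named genes. Of all 15027 features, 2644 were called higher and 3044 lower, so lower calls were the more common there too. The turned signs assume that the line labelled by 647 was the numerator of every ratio, which the labels do not state. With the other dye as the numerator every turned sign reverses and the deposited signs stay. Genes said here to keep their sign would then have the opposite one, and those said to turn would keep it. Turned counts of higher and lower genes would change places. The smallest adjusted p were those of SLC25A13, an aspartate-glutamate carrier of mitochondria (-0.19 ± 0.0211, SE; 1.04e-06), SLC38A10 (-0.19), SLC4A2, a chloride-bicarbonate exchanger (0.15), SLC19A3 (-0.25) and SLC35B2, which carries the sulfate donor of the Golgi (-0.31). In the main reading these 5 genes lay between -0.05 and 0.05. The sign of the mean over ages was the same in both readings for 60 of the 119 genes. Counts by substrate group moved too, as in the nucleotide sugar, nucleoside and phosphate carriers, of which 4 of 19 were above 0 when turned and 12 of 19 as deposited. SLC20A1 (-0.15, adjusted p 0.00474) and SLC4A4 (0.17, adjusted p 0.000625) kept their sign and passed the threshold in the turned reading, as did SLC8B1 (-0.22, adjusted p 0.00389), SLC2A2 (0.13, adjusted p 0.00794) and SLC25A4 (-0.11, adjusted p 0.0153). SLC23A1 (-0.12, adjusted p 0.0498) and SLC27A1 (0.08, adjusted p 0.0197) also passed it in the turned reading, but with the sign opposite to the main reading. SLC35D1 was at -0.01 in the turned reading. The labels do not settle which reading holds, since they state neither the sign convention nor whether the ratios were turned before deposit.

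Other transport proteins were counted in the same way. Of 18 ABC transporters 9 were above 0 for the mean over ages, of 30 ion pumps 17, of 34 potassium, chloride and calcium channels 16, of 4 SLCO organic anion transporters 2, and of 4 genes of the mitochondrial pyruvate carrier and outer membrane pores 2, and the aquaporin AQP3 was at -0.00452. None of them was called for that mean, at a single age or in the trend, beside 0.0133% of all features for the mean and 1.21% at 3 wk. Markers of fat cells, liver cells and other cell types also had no call for the mean over ages, beside 2 of all 15027 features. With so few calls in all, the lack of one shows nothing about these markers. Their medians were 0.02 for fat cells (10 genes), 0.06 for liver cells (19), 0.03 for erythrocytes (6), -0.10 for skeletal muscle (12, of which 3 were above 0), 0.00895 for leukocytes (9) and 0.02 for endothelium (10). Fat cell markers varied between single arrays from a median of -0.38 on 9 wk replicate 4 to 0.66 on 1 wk replicate 4, and the part of such shifts in the solute carrier values was not tested.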

How the data were processed

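Spotted cDNA arrays (2 colours) compared FL and LL abdominal fat. The values are the authors' deposited log2 ratios per spot; limma 3.4.5 under R 2.11.1 is listed in the submitters' processing notes, while background correction, normalization, sign convention and log base are not given in the sources used here (base 2 was taken as limma's usual output). Of 19200 spots, 160 values were missing, all on 1 wk replicate 4, and 123 spots of control clones printed more than 20 times were left out. Names came from the platform annotation with row and column exchanged; gene identifiers of all 119 members were found in RefSeq (bGalGal1.mat.broiler.GRCg7b), from which no coordinates were taken. Spots of a gene were averaged. A feature needed 3 of 4 arrays per age.

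The fit, in limma 3.58.1 under R 4.3.3, had 6 age effects, a dye term and array weights (from 0.404 for 7 wk replicate 1 to 3.47 for 11 wk replicate 2), and p-values were adjusted over 15027 features. The script was tested on simulated data. No scanner intensities were used, so signal over background is unknown; precision depends on how many arrays there are.

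The members, substrate groups and marker lists were chosen with earlier results of these data known. Genes named by rule were the 8 members of smallest p for the mean over ages and the 3 of smallest p at each age. To these came 2 each for the trend and for the difference among ages, and 10 measured members known in fat or cell nutrition. Others were named after their values were seen. After removal of age means and the dye term, same-numbered arrays of different ages (60 pairs) correlated at -0.324 to 0.264, with a mean of -0.0623. The mean was -0.0900 for arrays of other numbers, the same dye orientation and another age. The numbers were not taken to pair samples, and whether same-numbered arrays share a batch was not tested.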

Additional observations from a re-analysis of the deposited data

Results flagged for a closer look

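After removal of the dye term, 75 sets of 4 arrays of one gene and age were examined for an array that stands apart by Dixon's test, which chance gives in about 1 of 20 sets, and 3 were found. For SLC25A24, 7 wk replicate 1 was at -0.188 and the others at 0.0608 to 0.0883. This array had the lowest weight of all, 0.404. For SLC46A1, 5 wk replicate 4 was at 0.0339 with the others at 0.268 to 0.307, and 7 wk replicate 3 was at 0.14 with the others at -0.265 to -0.228. On the same values without the dye term, 0 of 165 pairs of ages of one gene had all arrays of one age above 0 and all arrays of the other below it. On the deposited ratios, SLC25A10 had all 4 arrays above 0 at 1 wk and all 4 below 0 at 11 wk, and that difference between ages was not tested by itself.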

How the results depend on the processing

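The named results numbered 39. In 9 alternatives over the whole data (only the arrays of one age applies to single ages), 17 kept their sign in all, and 31 kept it whichever single array was left out. Both counts include SLC46A1 and SLC23A1 for the difference among ages, which are F values without a sign and so could not turn. The count of 17 also rests on the dye taken as the numerator when the ratios were turned. Arrays centred and scaled, the median of spots, no dye term and the replicate block turned none. With the dyes balanced at each age, leaving out the dye term or using the block can move fitted values little. For the 68 members with 1 spot the median of spots is the same value as the mean. These settings are thus a weak check of sign. No intensities were used, and 4 arrays per age limit what single ages can show. The cause of each change was not tested. Of all features, 182 were called at 3 wk with array weights and 0 without them, 5 without a dye term and 3 with arrays centred and scaled.

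With ratios turned by the dyes, members past the adjusted threshold were 42 for the mean over ages, 3, 5, 8, 15, 4 and 8 at the 6 ages, 2 for the trend and 6 for the difference among ages. Over all 15027 features the same fits called 5688 for the mean, 524, 679, 1002, 2683, 942 and 1969 at the 6 ages, 411 for the trend and 868 for the difference. At an unadjusted p under 0.05 members numbered 58 for the mean, 25 at 1 wk, 27 at 5 wk, 31 at 7 wk, 26 at 9 wk, 34 at 11 wk, 13 for the trend and 28 for the difference. All features at that p numbered 7040, 2896, 2732, 4801, 3235, 3977, 2541 and 3867 in the same order. The signs that follow rest on the dye taken as the numerator. With the other dye each reverses, so results said to turn would keep their sign and those said to keep it would turn. For the mean over ages SLC23A1 turned to -0.125, SLC35E1 to -0.167, SLC25A30 to -0.0455, SLC25A3 to -0.105, SLC25A6 to -0.145 and SLC27A1 to 0.0843. Of these, SLC23A1 (adjusted p 0.0498 in limma) and SLC27A1 (0.0197) passed the adjusted threshold with the opposite sign. At single ages SLC23A1 turned to -0.215 (1 wk), -0.076 (5 wk) and -0.127 (11 wk), SLC27A1 to 0.204 and SLC43A2 to -0.126 (1 wk), SLC25A30 to -0.0363 (5 wk), SLC25A29 to 0.0648 (7 wk) and SLC12A9 to -0.0156 (9 wk). The results that kept their sign and passed the adjusted threshold were 7: SLC20A1 -0.147, SLC4A4 0.17, SLC2A2 0.131 and SLC25A4 -0.108 for the mean over ages, SLC20A1 -0.371 at 3 wk, and SLC25A32 -0.388 and SLC35G2 0.248 at 7 wk.

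With spot names as given, members at an unadjusted p under 0.05 numbered 2 at 7 wk, 8 at 11 wk and 0 for the difference. All features at that p numbered 588, 960 and 292. The mean over ages turned for SLC4A4 (-0.0532), SLC25A3 (-0.0135), SLC2A2 (-0.0454), SLC16A1 (0.0113), SLC7A5 (0.0191) and SLC27A1 (0.00774), as did SLC1A4 at 5 wk (-0.0328), SLC12A9 (-0.156) and SLC2A2 (-0.0583) at 9 wk and the slope of SLC25A10 (0.00706).

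Without array weights members at an unadjusted p under 0.05 numbered 8 at 3 wk, 6 at 5 wk, 0 at 11 wk and 2 for the difference, and SLC25A4 turned to 0.00302. All features at that p numbered 1033, 437, 200 and 336 in these comparisons. Without a dye term members numbered 2 at 7 wk, 5 at 9 wk, 2 at 11 wk and 0 for the difference (all features 542, 565, 424 and 228). With arrays centred and scaled they were 0 for the difference (282 features). With only the arrays of one age members numbered 2 at 1 wk, 8 at 3 wk and 2 at 11 wk (all features 479, 1266 and 741). With the replicate block, 1 member, SLC23A1, passed the adjusted threshold at 3 wk (0.385, adjusted p 0.0491), beside 225 of all features. The block changed no other call of a member. Without the 2 arrays of high liver markers, 1 member passed for the mean over ages (4 features) and 1 at 3 wk (293 features). It was SLC23A1 in both, and SLC7A5 turned to 0.00745. In that fit 7 members had an unadjusted p under 0.05 at 1 wk (1112 features) and 4 for the difference (628 features).

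Leaving out 1 array at a time, members past the adjusted threshold ranged from 0 to 3 for the mean over ages, 0 to 1 at 3 wk and 0 to 4 at 7 wk. Those at an unadjusted p under 0.05 ranged from 10 to 20 for the mean, 3 to 8 at 1 wk, 9 to 21 at 3 wk, 1 to 11 at 5 wk, 3 to 19 at 7 wk, 5 to 13 at 9 wk, 3 to 7 at 11 wk, 1 to 12 for the trend and 0 to 4 for the difference. All features moved as well, as given here for 1 wk and 3 wk. At 1 wk they numbered 611 without 1 wk replicate 4 (3 members) and 1016 without 1 wk replicate 1 (8 members). At 3 wk they numbered 1347 without 3 wk replicate 4 (9 members) and 2107 without 3 wk replicate 1 (21 members). At 7 wk SLC25A32 ranged from -0.969 to 0.205 and SLC35G2 from -0.0845 to 0.363, and the latter was also -0.027 without replicate 4. For the mean over ages SLC2A2 ranged from -0.00955 to 0.0373, SLC16A1 from -0.0342 to 0.00784, SLC16A3 from -0.0483 to 0.00345, SLC7A5 from -0.0268 to 0.00497, SLC25A1 from -0.0426 to 0.00344 and SLC25A4 from -0.0312 to 0.00197.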
